A study of Mus musculus with 24 samples.

Results

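The comparison described here is that between genotypes in mouse bone marrow-derived macrophages kept for 3 days in M-CSF alone. Its members are 6 of the 24 libraries of the series, chosen by their labelled genotype, day and medium, with 3 libraries in each group. The control genotype had a Runx1 transgene in Rosa26 (Rosa26-Runx1tg/+). The cells of the other group carried the same transgene together with the Cre driver LysM-Cre (LysM-Cre;Rosa26-Runx1tg/+), and the labels call them Runx1 over-expressing. The transgene is therefore shared by every library, and the groups differ in Cre. The macrophages had been expanded on petri dishes and were plated at 15000 cells per well of 48-well plates, and RNA was sequenced from bulk cultures. The M-CSF dose of these wells, the age and sex of the mice and the meaning of the numbers 1 to 3 in the library names are not stated in any label. No label says that the numbers stand for separate mice, so p-values measure a spread between libraries. That spread was estimated within groups over all 24 libraries and not over these 6 alone. Libraries of the same number were treated as independent across days and media. Their source is known only as far as the sex-linked genes below show. The series as a whole concerns Runx1 in osteoclast precursors and bone mass. The question put to these 6 libraries is how the genotypes differ at day 3 in cultures without RANKL.

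M-CSF is the growth factor that keeps macrophages and osteoclast precursors alive and dividing, through the receptor CSF1R. RANKL is the second signal, which drives these precursors to fuse into osteoclasts, the cells that resorb bone. RUNX1 is a transcription factor that binds DNA with its partner CBFB and is known for its part in blood cell formation and in the regulation of myeloid genes. LysM-Cre is a Cre recombinase placed in Lyz2, the lysozyme gene of macrophages and neutrophils, and it recombines most but not all cells of these lineages. In bulk RNA, fewer cells expressing a gene and less RNA per cell cannot be told apart.

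The 6 libraries held between 20313910 and 24268936 counts, so a single read corresponded to 0.0398 to 0.0466 CPM (counts scaled to a library of 1000000 counts, with TMM factors throughout). Defining macrophage markers were abundant in all 6: the M-CSF receptor gene Csf1r lay between 1886 and 3491 CPM and the macrophage antigen gene Adgre1 between 915 and 1403 CPM. The labels name the cell type as osteoclasts, but most of the osteoclast genes used as markers were low in M-CSF alone. The calcitonin receptor gene Calcr was at 0 in 5 of the 6 libraries and at 0.0432 CPM in the other, and Oscar, an osteoclast receptor gene, was at 0 in 5 and at 0.0864 CPM in the other. Markers of other cells were present to different extents. Mast cell and basophil genes summed to at most 0.653 CPM, and the haemoglobin genes and the T cell gene Cd3e were at 0. The platelet chemokine gene Pf4, in contrast, averaged 377 CPM in controls and 261 CPM in LysM-Cre libraries, the immunoglobulin gene Ighm 110 and 95.7 CPM, and neutrophil granule genes summed to 189 to 275 CPM. In the LysM-Cre library number 1, mitochondrial genes took 2.42% of counts and 18530 genes had a count. In the other 5 libraries mitochondrial genes took 1.53% to 1.86% and between 19032 and 19609 genes had a count.

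The library labelled LysM-Cre number 3 stood apart in its sex-linked genes. It had 622 counts from the Y-linked genes measured, where the other 5 libraries had 0. For Xist, the RNA of the inactive X chromosome, it had 12 counts where the others had between 18159 and 22911. The same held for its other 3 libraries in the series: the Y-linked gene Ddx3y was at 8.29 to 13.4 CPM in the 4 libraries of number 3 and at no more than 0.0515 CPM in the rest. LysM-Cre number 3 thus has a male pattern and LysM-Cre 1 and 2 a female one, so number 3 came from a different animal than those, and no label gives sex. All 3 control libraries have the female pattern, so sex and any other property of number 3 cannot be told apart. Calls and most gene lists are given below with and without it, and single genes with it unless stated.

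Genotype was not the main axis along which these 6 libraries varied. The first principal component, with 44.3% of the variance, placed control 1 (48.53) and LysM-Cre 2 (37.19) at one end and control 3 (-33.79) and LysM-Cre 3 (-42.87) at the other. The root mean square log2 distance was 0.475 to 0.799 between libraries of different genotype, 0.502 to 0.754 among controls and 0.634 to 0.746 among LysM-Cre libraries. The library pair at the positive end of that component shared low cell cycle genes and high interferon-stimulated genes. The 30 cell cycle genes summed to 3080 CPM in control 1 and 3144 CPM in LysM-Cre 2, against 4211 to 5361 CPM in the other 4. The 28 interferon-stimulated genes summed to 1170 CPM and 1329 CPM in that pair, against 702 to 923 CPM in the other 4. Both groups thus contained a library of each kind.

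The genes that check the labels were examined first. Runx1 itself was at 93.2, 67.8 and 77.1 CPM in the 3 control libraries and at 79.2, 99.5 and 79.4 CPM in the 3 libraries labelled LysM-Cre. The groups overlapped, and the log2 difference (LysM-Cre minus control) was 0.12 with a 95% interval of -0.17 to 0.40 (edgeR quasi-likelihood test, adjusted p = 1). The upper bound corresponds to a 1.32-fold rise, so the over-expression that the label names is not seen in the counts for Runx1. Without number 3 the difference was 0.17 (interval -0.11 to 0.44). Whether transcripts of the transgene are counted under Runx1 was not tested, so directions below are those of the labels. Cbfb, the partner of the RUNX proteins, had a log2 difference of 0.03 (interval -0.29 to 0.35). Gt(ROSA)26Sor, the host gene of the Rosa26 locus, had one of 0.12 (interval -0.22 to 0.47). It overlaps the more abundant gene Thumpd3 on the opposite strand (30.2 CPM against 6.16 CPM). No source says whether the counting used strand, so some of its reads may be those of Thumpd3.

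Lyz2, in which the Cre driver sits (chromosome 10, 117277331 to 117282321), was at 25577, 19924 and 16484 CPM in controls and at 11045, 13802 and 15941 CPM in LysM-Cre libraries. All 3 LysM-Cre libraries lay below all 3 controls, with a log2 difference of -0.60 (interval -1.22 to 0.01, unadjusted p = 0.0528, adjusted p = 1). Number 3 did not keep this position at day 5. In M-CSF alone it was then at 23410 CPM, inside the control range of 18671 to 23695 CPM. LysM-Cre 1 and 2 were at 13685 and 13148 CPM there. With RANKL at day 5 number 3 was at 5196 CPM, inside the control range of 4546 to 5240 CPM. With RANKL at day 3 it was at 2042 CPM, just below the lowest control at 2124 CPM. Without number 3 the difference for Lyz2 at day 3 in M-CSF alone was -0.74 (interval -1.37 to -0.1, edgeR adjusted p = 0.567). Its neighbour Lyz1, the second lysozyme gene (117287797 to 117292868), was at 9.98, 7.64 and 7.09 CPM in controls and at 29.3, 42.8 and 7.39 CPM in LysM-Cre libraries. LysM-Cre 1 and 2 were high for Lyz1, and LysM-Cre 3 was at the level of controls. The 2 genes are near-identical copies, so reads can be assigned to the wrong one, and small values of Lyz1 beside a very abundant Lyz2 are uncertain. The first 150 of their 444 coding bases are shown because they hold 14 of the 22 differing bases, with the differing bases in capitals (GRCm38, GENCODE; both genes are on the minus strand and the sequence is in the direction of the transcript).
Lyz1: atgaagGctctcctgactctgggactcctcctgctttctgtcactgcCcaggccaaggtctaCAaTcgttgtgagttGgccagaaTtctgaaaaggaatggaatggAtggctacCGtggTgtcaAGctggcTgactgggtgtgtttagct
Lyz2: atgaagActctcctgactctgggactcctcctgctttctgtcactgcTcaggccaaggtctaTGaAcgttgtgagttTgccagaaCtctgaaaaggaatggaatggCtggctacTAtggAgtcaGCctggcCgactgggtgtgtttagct
Over the whole coding sequence the copies were 95% identical, and their longest shared run was 118 bases, in which no read can be placed by sequence alone.

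No gene passed the test between genotypes. Of 15035 genes tested, edgeR called 0 at an adjusted p under 0.05 (percent called: 0), and 530 had an unadjusted p under 0.05 (3.53%), 283 of them higher (1.88%) and 247 lower (1.64%) in LysM-Cre libraries. DESeq2 on the same libraries called 3 genes (0.02%), Nectin1, Afdn and Ndrg4, and gave 580 an unadjusted p under 0.05 (3.86%). In 813 genes (5.41%) the 3 values of the groups did not overlap, 409 higher (2.72%) and 404 lower (2.69%).

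The size of the differences was nevertheless well bounded for most expressed genes. The median log2 difference over all genes tested was 0.01 and the median absolute difference 0.12. The median half-width of the 95% interval was 0.40 on the log2 scale, a factor of 1.32. For 10531 genes (70.0%) the whole interval lay inside a 2-fold change in either direction. Precision followed abundance. Of the 7440 genes with a mean log2 CPM of 4 or more over the 6 libraries, 98.1% had their whole interval inside 2-fold and the median half-width was 0.25. Among 3281 genes between 1 and 4 the share was 85.9%, and among 4314 genes under 1 it was 9.5%, with a median half-width of 1.25. Fitted differences past 2-fold came almost entirely from that lowest class, with 263 of 277 higher and 434 of 439 lower. In that class the median half-width corresponds to a factor of 2.38, and 10 genes had their whole interval past 2-fold, so differences under about that factor were mostly not detectable at this depth and number of libraries.

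**Figure D1:**
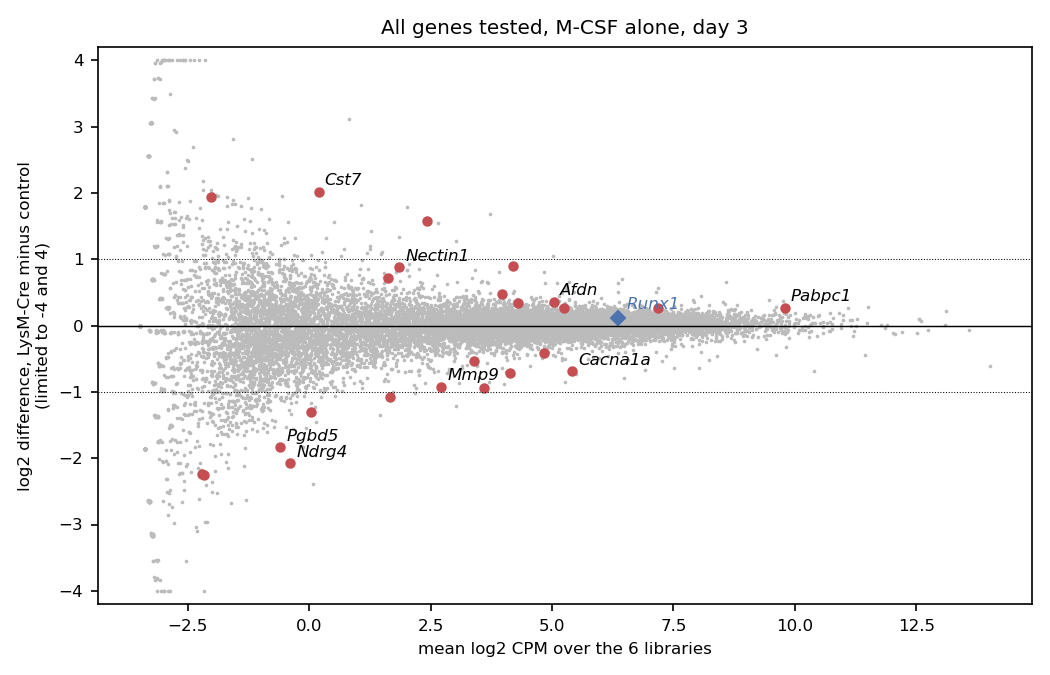
Log2 difference between genotypes (LysM-Cre minus control, limited to -4 and 4) against the mean log2 CPM of the 6 libraries, for the 15035 genes tested in M-CSF alone at day 3. Grey points are genes, red points the 24 genes with the smallest p whose groups do not overlap, and the blue diamond is Runx1; dotted lines mark 2-fold, and the cloud narrows towards abundant genes.

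Because no gene passed, the leading genes are given as sizes with intervals. They are the 12 higher and 12 lower genes with the smallest unadjusted p among named genes whose average log2 CPM over the 24 libraries was 1 or more and no overlap between groups. That average includes the RANKL libraries. Ndrg4, Cpe, Pgbd5, Hist2h3c2, Lims2, Slc27a6 and Cst7 were on average higher there than in these 6 libraries, so they reached it partly through RANKL. They were chosen by this contrast, so their lack of overlap and their p-values are a description. The cell adhesion genes came first. Nectin1 (chromosome 9, 43743984 to 43807461) encodes an immunoglobulin-like adhesion receptor of adherens junctions. It was at 2.38, 2.61 and 2.82 CPM in controls and at 4.63, 5.49 and 4.28 CPM in LysM-Cre libraries. Each LysM-Cre library, number 3 included, lay above each control. The fitted level was 1.84-fold that of controls, a log2 difference of 0.88 (SE 0.18, interval 0.51 to 1.25, unadjusted p = 7.79e-05, adjusted p = 0.69 by edgeR). With DESeq2 the difference was 0.88 with an adjusted p of 0.0264.

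Afdn (chromosome 17, 13760539 to 13906150) encodes afadin, the scaffold that ties nectins to the actin cytoskeleton. It was at 29.0, 26.9 and 31.2 CPM in controls and at 38.9, 36.0 and 37 CPM in LysM-Cre libraries. The difference was small and narrow, with a log2 value of 0.36 (interval 0.21 to 0.52, adjusted p = 0.69). Nectin1 and Afdn belong to a list of 16 tested genes for nectins and related adhesion molecules, of which they are the only 2 with an unadjusted p under 0.05. The median log2 difference of that list was 0.01, equal to that of all genes (0.08 without LysM-Cre number 3), and 4 of its members had groups that did not overlap, all higher. The percent of all genes with such a pattern is the 2.72% given above, and the list contains the gene by which this comparison was marked, so its count is no independent support.

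Mmp9 (chromosome 2, 164940780 to 164955850) encodes a gelatinase that macrophages secrete at a low level and osteoclasts at a high one. It was at 7.23, 10.0 and 9.79 CPM in controls and at 4.14, 4.30 and 5.88 CPM in LysM-Cre libraries. All LysM-Cre values were below all control values, and the log2 difference was -0.92 (SE 0.23, interval -1.39 to -0.45, unadjusted p = 0.000605, adjusted p = 1), a level 0.529 times that of controls. Among the 16 matrix metalloproteinases and their inhibitors tested, Mmp9 alone had an unadjusted p under 0.05. Their median log2 difference was -0.21, and 5 of the 16 lay above 0 (-0.31 and 4 without number 3). The abundant inhibitor gene Timp2 had a difference of -0.24 (interval -0.58 to 0.10).

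**Figure D2:**
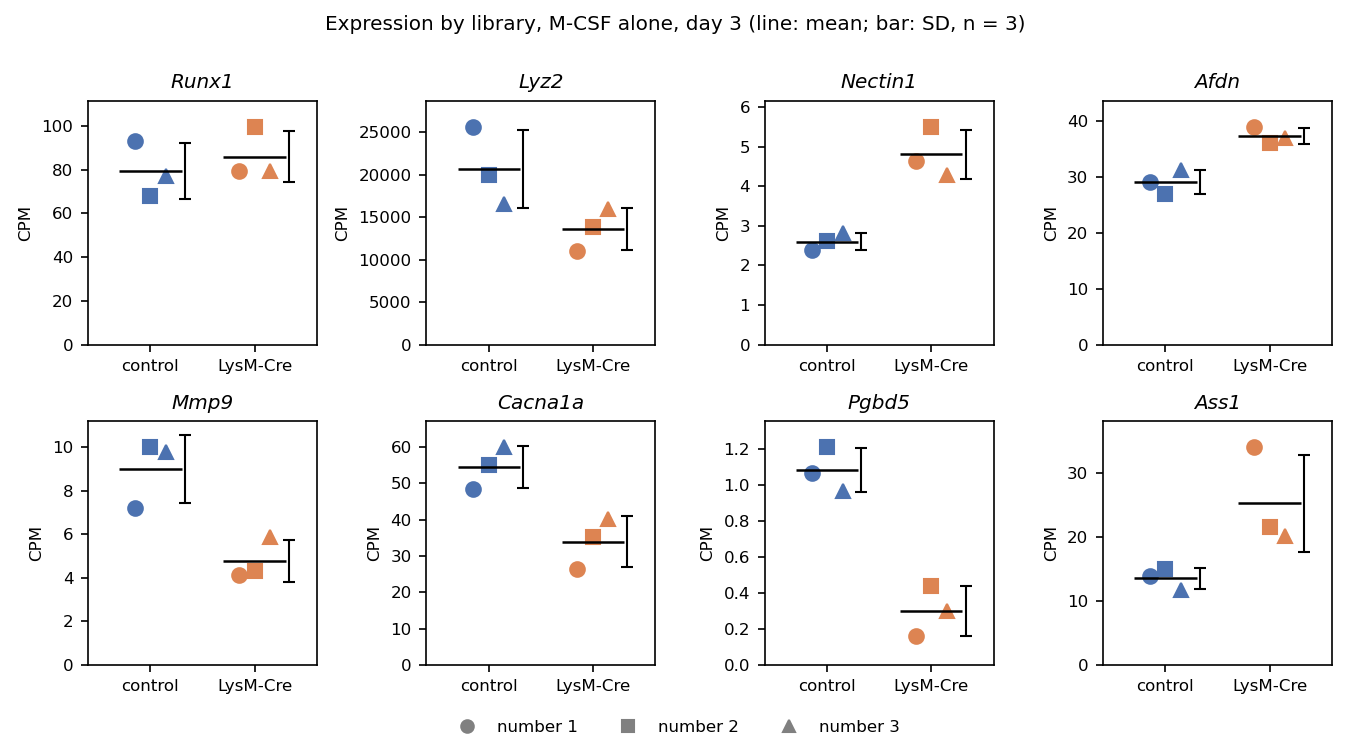
CPM of 8 genes in each of the 6 libraries (blue, control; orange, LysM-Cre; marker shape gives the library number), with the mean as a line and the SD as a bar (n = 3 per group), each axis starting at 0. Runx1 overlaps between groups, Nectin1, Afdn and Ass1 are higher and Lyz2, Mmp9, Cacna1a and Pgbd5 lower in all 3 LysM-Cre libraries.

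Further genes on the lower side included Cacna1a, which encodes the pore-forming subunit of a voltage-gated calcium channel. It was at 48.5, 55.1 and 59.9 CPM in controls and at 26.3, 35.3 and 40.1 CPM in LysM-Cre libraries, a log2 difference of -0.69 (interval -1.11 to -0.26). Pgbd5, a transposase-derived gene, was at 1.07, 1.21 and 0.967 CPM against 0.161, 0.438 and 0.302 CPM, with a difference of -1.83 (interval -2.67 to -0.99, adjusted p = 0.864). Lama3, a laminin chain gene of basement membranes, had a difference of -0.94 (interval -1.45 to -0.44), and Cpe, a carboxypeptidase gene of hormone processing, one of -1.30 (interval -2.11 to -0.49). Cpe was at 2.14, 1.03 and 1.41 CPM in controls and at 0.362, 0.677 and 0.821 CPM in LysM-Cre libraries. Its counts in the latter were 9, 17 and 19, so its value too rests on few reads. With RANKL it was at 76.2 to 164 CPM. Ndrg4 was at 2.1, 0.746 and 1.53 CPM in controls and at 0.161, 0.517 and 0.346 CPM in LysM-Cre libraries (-2.08, interval -3.16 to -1.0). Its counts in LysM-Cre libraries were 4, 13 and 8, so this value rests on few reads. It was at 13.4 to 34.7 CPM with RANKL, which raised its average over the 24 libraries. The remaining lower genes were Dpy19l3, the DNA polymerase gene Polm, Tmem160, the kinase gene Nuak1, the histone gene Hist2h3c2 and Lims2. Of these, Hist2h3c2 was at or below 0.42 CPM and Lims2 at or below 0.403 CPM in these 6 libraries, so their fitted values of -2.25 and -2.24 rest on few reads.

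On the higher side, Ass1, the argininosuccinate synthase of arginine supply, was at 13.9, 15.0 and 11.7 CPM in controls and at 34.0, 21.6 and 20.1 CPM in LysM-Cre libraries. The log2 difference was 0.90 (interval 0.38 to 1.42, unadjusted p = 0.00178). Ptges, the prostaglandin E synthase gene, was at 1.82, 1.96 and 3.35 CPM against 3.86, 4.30 and 3.59 CPM, so that control 3 nearly reached the LysM-Cre range (0.71, interval 0.28 to 1.15). Cst7, a cystatin gene of immune cells, was at 0.466, 0.792 and 0.443 CPM against 4.14, 1.83 and 0.951 CPM (2.02, interval 0.69 to 3.36). Cnbd2 was at 4.48, 3.87 and 1.49 CPM against 13.3, 9.71 and 6.09 CPM (1.57, interval 0.53 to 2.61). It overlaps the more abundant gene Scand1 on the opposite strand, whose mean was 41.8 CPM, and since no source says whether the counting used strand, reads of that pair cannot be told apart. Abundant genes with narrow intervals were Pabpc1, the poly(A)-binding protein gene, with a difference of 0.27 (interval 0.10 to 0.45), and Frrs1, with 0.27 (interval 0.11 to 0.43). The others were Naa16, Pptc7, Dcun1d3 and the fatty acid transporter gene Slc27a6, the last at no more than 0.398 CPM in any of the 6 libraries.

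**Figure D3:**
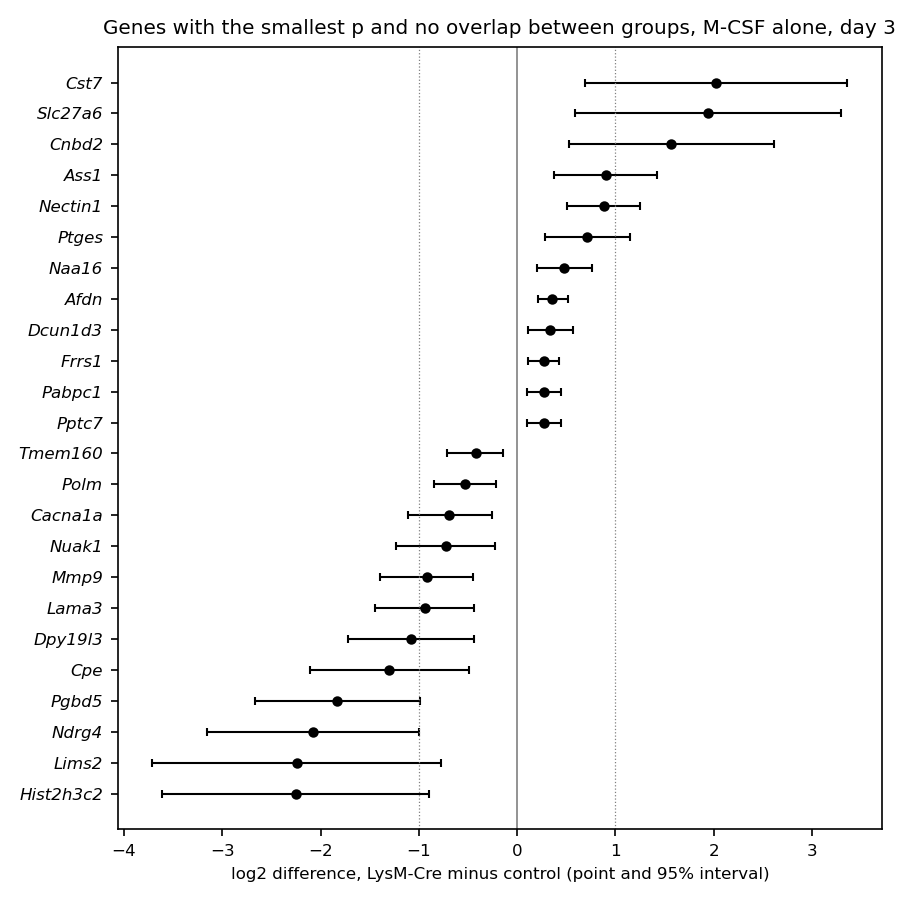
Fitted log2 difference (point) and 95% interval (bar) of the 24 leading genes, from edgeR on all 24 libraries; the solid line marks no difference and the dotted lines 2-fold. The intervals of abundant genes such as Pabpc1 (0.10 to 0.45) are narrow and those of scarce genes such as Lims2 (-3.71 to -0.77) wide; the genes were chosen by these values.

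Leaving out the 4 libraries labelled LysM-Cre number 3, across all days and media, gave 35 genes called between genotypes in M-CSF at day 3, of 15339 tested (0.228%), with 10 higher (0.0652%) and 25 lower (0.163%). Unadjusted p-values under 0.05 numbered 1148 (7.48%). Leaving out only the day 3 M-CSF library of number 3 gave 0 calls, as did leaving out any other numbered set of 4 libraries. The 5 libraries of this comparison fitted alone without number 3 also gave 0, and DESeq2 without number 3 called 119, among them all 35. None of the 35 genes was X-linked, and the Y-linked genes, which have almost no reads without number 3, were not tested in that fit. The 35 lay on 17 chromosomes, with at most 4 on any of them, 2 on that of Lyz2 and 0 on that of Rosa26.

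The higher genes without number 3 included enzymes and adhesion molecules. Padi2, a peptidylarginine deiminase gene, was at 25.7, 21.4 and 23.1 CPM in controls and at 59.0 and 62.3 CPM in LysM-Cre 1 and 2. The log2 difference without number 3 was 1.37 (interval 1.05 to 1.69, adjusted p = 0.000452), and number 3 was at 24 CPM, inside the control range. Wdfy1, an endosomal adaptor gene, rose by 1.11 (adjusted p = 0.000678) and was at 10.7 CPM in number 3, also inside the control range of 9.70 to 13.4 CPM. It overlaps Mrpl44 on the opposite strand (24.4 CPM against 16.1 CPM), so some of its reads may be those of Mrpl44. Nectin1 rose by 0.95 (interval 0.61 to 1.29, adjusted p = 0.018). Emb, an immunoglobulin-like adhesion gene, rose by 0.95, Neo1, which encodes the receptor neogenin, by 0.96, and Gstp1, a glutathione transferase gene, by 0.87. Lyz1, Ltbp2, Cst7 and 2010005H15Rik were the other 4 higher genes.

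The lower genes without number 3 included receptors and trafficking genes of the cell surface. Igf2r, the mannose 6-phosphate receptor that sorts lysosomal enzymes, was at 355, 479 and 420 CPM in controls, at 204 and 201 CPM in LysM-Cre 1 and 2 and at 505 CPM in number 3. Its log2 difference without number 3 was -1.05 (interval -1.34 to -0.76, adjusted p = 0.00158), and with number 3 it was -0.46 (interval -1.25 to 0.33). Tfrc, the transferrin receptor of iron uptake, was at 189, 270 and 277 CPM in controls, at 96.6 and 94.9 CPM in LysM-Cre 1 and 2 and at 283 CPM in number 3, a difference of -1.36 without it (adjusted p = 0.0274). Both receptors were thus about the control level in number 3. Ttc39b (-1.29), the p38 kinase gene Mapk11 (-2.19), the Notch ligand gene Jag2 (-2.28), the integrin gene Itga9 (-1.69), the transglutaminase gene Tgm2 (-1.10) and Mmp9 (-1.10, adjusted p = 0.0457) were among the others. Airn, called at -1.92, is transcribed antisense to Igf2r and overlaps it at 1.57 CPM against 361 CPM, so its reads may be those of Igf2r.

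Runx3, a paralogue of Runx1, was also called without number 3, at -3.28 (interval -4.56 to -1.99, adjusted p = 0.0324). Its values were 0.699, 3.78 and 5.44 CPM in controls, 0.402 and 0.279 CPM in LysM-Cre 1 and 2 and 6.87 CPM in number 3. Control 1 was nearly as low as LysM-Cre 1 and 2, so this call rests on controls 2 and 3. With all libraries the difference was -0.42 (interval -2.34 to 1.5).

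Number 3 was nearer to the control mean than to the mean of LysM-Cre 1 and 2 in 33 of the 35 genes (94.3%), against 61.6% of all genes tested. It lay inside the control range in 15 of the 35 (42.9%), against 47.6% of all genes, and beyond the controls on the far side in 12, against 4025 of all 15339 genes. The genes were chosen for the separation of LysM-Cre 1 and 2 from the same controls, so these shares are a description. The 2 exceptions, nearer to LysM-Cre 1 and 2, were Nectin1 and Mmp9. In number 3 they were at 4.28 and 5.88 CPM, against control ranges of 2.38 to 2.82 and 7.23 to 10.0 CPM. What sets number 3 apart in these genes was not tested.

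**Figure D4:**
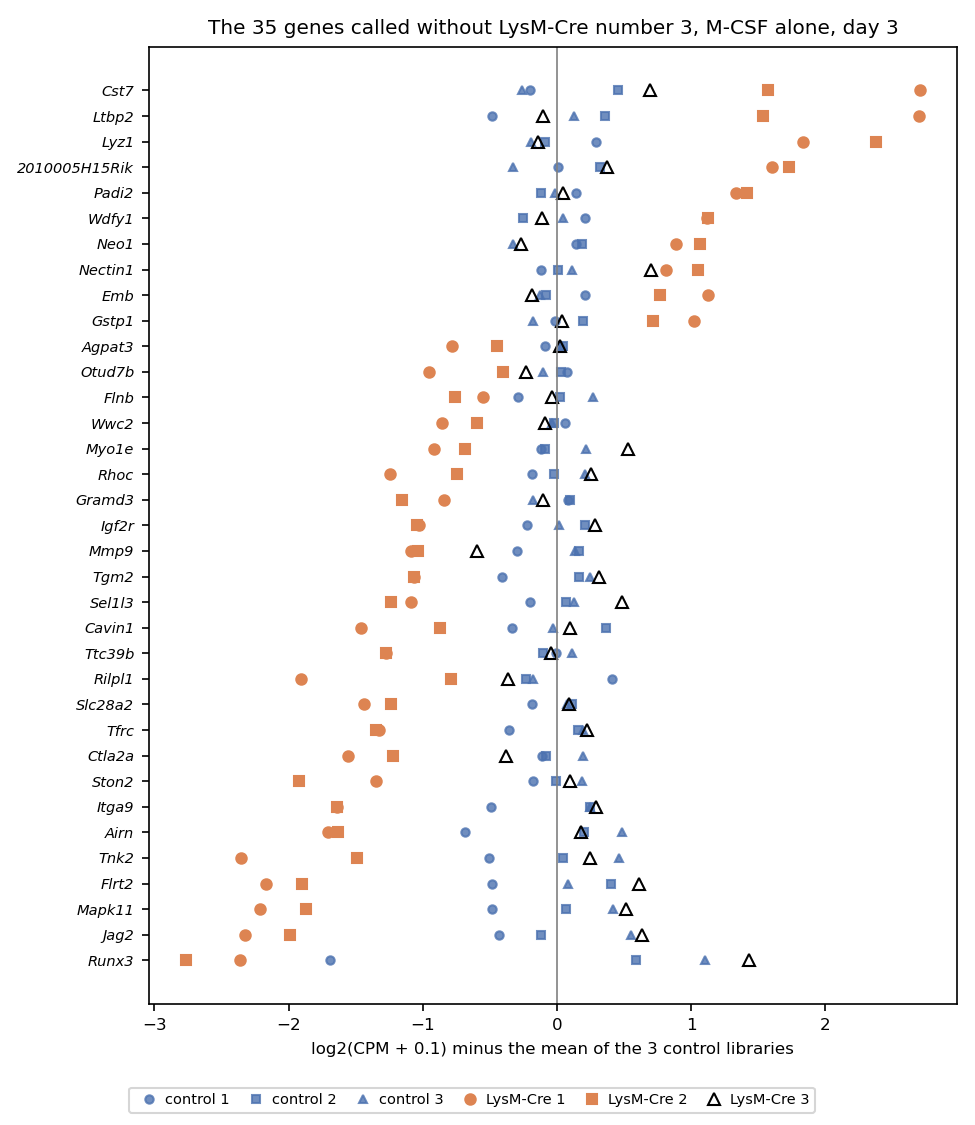
Log2(CPM + 0.1) of the 35 genes called without LysM-Cre number 3, in each of the 6 libraries, relative to the mean of the 3 controls (blue, controls; orange, LysM-Cre 1 and 2; open triangles, LysM-Cre 3). The genes were chosen by the separation of blue from orange; the open triangle is nearer to the control mean in 33 of the 35.

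The genes of the RUNX pathway and of macrophage identity are given next by counts, from 27 gene lists with 416 tested members. Of these members, 0 were called and 13 had an unadjusted p under 0.05. Of all genes tested, 3.53% had such a p and 51.8% lay above 0. Of 18 tested members of the Runx family and its partners, 11 lay above 0 and the median was 0.03 (10 and 0.01 without number 3). Runx2, the osteoblast factor of the family, was at 3.17 to 4.90 CPM in controls and 2.85 to 3.18 CPM in LysM-Cre libraries (-0.32, interval -0.92 to 0.29). It overlaps Supt3 on the opposite strand (7.89 CPM against 3.45 CPM), so some of its reads may be those of Supt3. Of 17 myeloid genes known as Runx1 targets, 11 lay above 0 with a median of 0.04. Without number 3, 9 of 16 did, with a median of 0.02. Cebpa, a myeloid transcription factor gene, had a difference of -0.31 (interval -0.91 to 0.29).

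Among 28 receptors and signalling genes of M-CSF and RANKL the median was -0.03 (0.02 without number 3), and for 27 the whole interval lay inside 2-fold. Plcg2, a phospholipase of receptor signalling, had a difference of 0.20 (interval 0.03 to 0.37) and Nfkb2, the gene of the p100 subunit of NF-kappaB, one of -0.34 (interval -0.65 to -0.03), both with overlapping groups and an adjusted p of 1. Of 25 macrophage genes the median was -0.06 (0.00 without number 3), and 22 were bounded inside 2-fold. Csf1r had a difference of -0.09 (interval -0.50 to 0.32), and the sole member with an unadjusted p under 0.05 was Timd4, a phosphatidylserine receptor gene at no more than 1.01 CPM.

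Of 20 tested osteoclast genes of resorption and fusion, 13 lay above 0 with a median of 0.09, and Mmp9 was the sole one with an unadjusted p under 0.05. In 3 of the 20 the groups did not overlap, 2 higher and 1 lower, against 5.41%, 2.72% and 2.69% of all genes. Without number 3, 7 of the 20 lay above 0 (median -0.03), and Mmp9 was called. Ctsk, the collagen-degrading cathepsin gene, was at 2.82 to 5.92 CPM in controls and 3.74 to 4.75 CPM in LysM-Cre libraries (0.14, interval -0.34 to 0.63). Acp5, which encodes the tartrate-resistant phosphatase, was at 7.66 to 10.4 and 8.33 to 11.6 CPM (0.14, interval -0.32 to 0.59). For 19 precursor and regulator genes the median was -0.01 (-0.12 without number 3). Of 12 genes of alternative activation, 2 lay above 0 (median -0.12; 4 and -0.20 without number 3), and 3 had an unadjusted p under 0.05: the lectin gene Mgl2 (1.15), the interleukin-4 receptor gene Il4ra (-0.35, interval -0.63 to -0.08) and the chemokine gene Ccl24 (-1.83).

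Several large lists leaned to one side without a member at an unadjusted p under 0.05. Of 28 interferon-stimulated genes 24 lay above 0 (median 0.18), of 30 cell cycle genes 27 (median 0.12), and of 22 inflammatory and chemokine genes 18 (median 0.14), against 51.8% of all genes. Without number 3 the cell cycle list had 17 of 30 above 0 (median 0.03) and the inflammatory list 12 of 24 (median 0.03), so that their lean was not seen, while the interferon list had 26 of 28 (median 0.40). The median of all genes was then -0.01. The SD of the mean log2 level of the list within a group, pooled over groups, was 0.59 for the interferon list and 0.53 for the cell cycle list. With all 6 libraries the medians were 0.02 for oxidative phosphorylation, 0.04 for glycolysis and hypoxia, -0.02 for cholesterol synthesis and lipid efflux, -0.01 for apoptosis and survival and -0.04 for stress and immediate early genes. Several moved without number 3. The median was then -0.38 for cholesterol synthesis and lipid efflux, with 5 of 20 above 0 in place of 7. It was -0.08 for glycolysis and hypoxia, with 4 of 22 above 0 in place of 15, and -0.07 for oxidative phosphorylation, with 8 of 24 in place of 13. It was 0.02 for apoptosis and survival and -0.05 for stress and immediate early genes. No member of these 5 lists was called in either fit.

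Of the markers of other cells, monocyte genes summed to 445 to 547 CPM in controls and 464 to 513 CPM in LysM-Cre libraries (median difference 0.21), neutrophil granule genes to 189 to 275 and 221 to 251 CPM (0.23), and genes of MHC class II and dendritic cells to 90.9 to 130 and 86.0 to 113 CPM (-0.25). Stromal and osteoblast genes summed to 13 to 22.6 and 10.6 to 28.1 CPM, and lymphoid genes to 80.1 to 170 and 77.3 to 136 CPM, most of it Ighm. Erythroid and megakaryocyte genes summed to 320 to 418 CPM in controls and to 195, 195 and 403 CPM in LysM-Cre 1, 2 and 3, most of it Pf4 (192, 192 and 400 CPM against 317, 397 and 416 CPM in controls). LysM-Cre 1 and 2 were thus well below the controls in Pf4 and number 3 was not, the pattern of many of the 35 genes. The list as a whole did not show it. Without number 3 the median difference of its 4 tested members was 0.05, with 2 above 0. Progenitor genes summed to 9 to 13.5 and 9.63 to 20.2 CPM, and Cd34 among them had a difference of 1.11 (interval 0.13 to 2.09) with overlapping groups. Without number 3 the median differences were 0.21 for monocyte, 0.06 for neutrophil granule, -0.18 for MHC class II and dendritic, -0.09 for stromal and osteoblast and -0.57 for progenitor genes, the last from 0.12 with it. The part of any of these cells in the genotype differences was not tested.

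**Figure D5:**
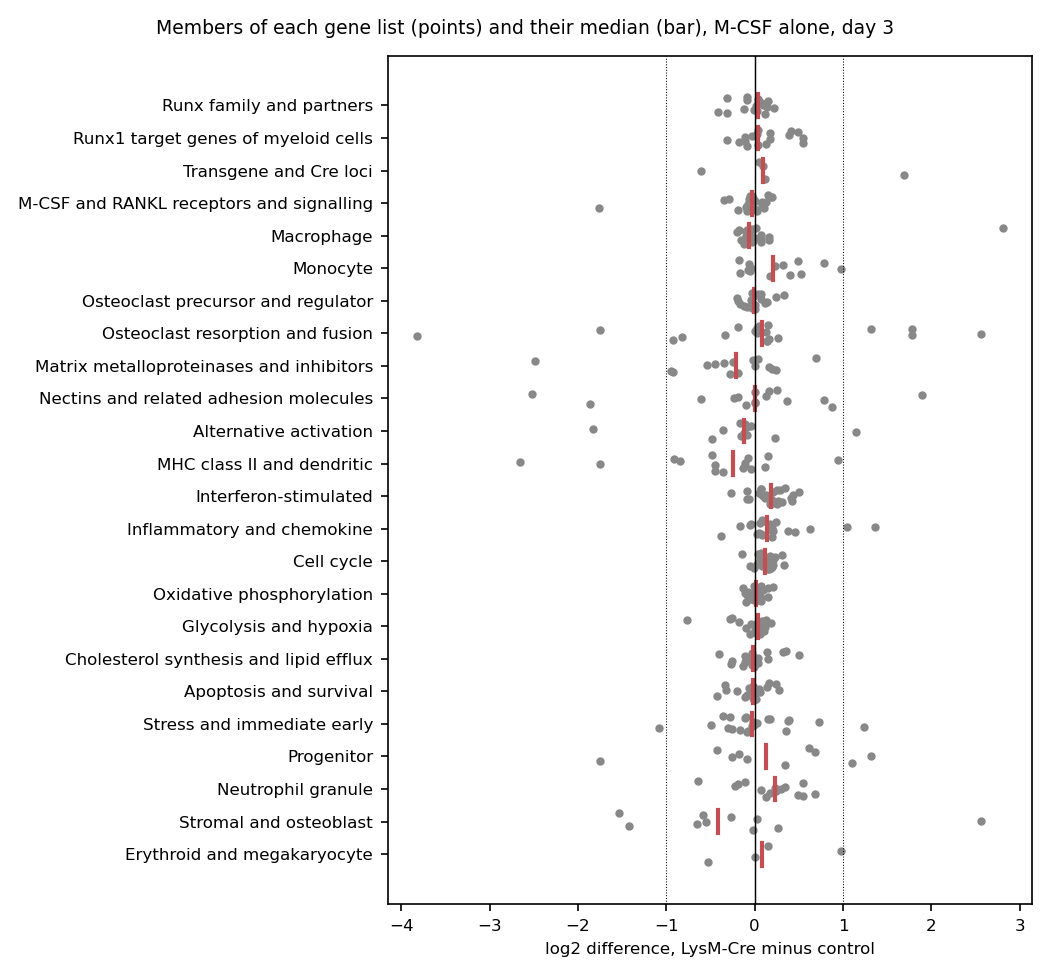
Fitted log2 difference of each tested member (grey points) and the median (red bar) of 24 of the 27 gene lists; dotted lines mark 2-fold. The medians lie between -0.41 (stromal and osteoblast) and 0.23 (neutrophil granule), and the points far from 0 are mostly scarce genes.

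The same contrast at day 5 in M-CSF alone, and at day 3 with RANKL, uses other libraries of the same numbered sets. In neither did edgeR call a gene (0 of 15035 each), with 948 (6.31%) and 258 (1.72%) at an unadjusted p under 0.05. For Nectin1 the log2 difference was 0.88 at day 3, 1.11 at day 5 (interval 0.74 to 1.49, adjusted p = 0.0688) and 0.38 with RANKL (interval 0.07 to 0.70). Day 5 minus day 3 was 0.23 for it (interval -0.30 to 0.76), and RANKL minus M-CSF alone was -0.50 (interval -0.98 to -0.01, unadjusted p = 0.0468, adjusted p = 1). Nectin1 at day 5 was at 3.39, 2.44 and 2.27 CPM in controls and at 6.82, 6.69 and 4.02 CPM in LysM-Cre libraries, again without overlap, as in 8.74% of all genes in that direction.

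Mmp9 had a difference of -0.91 at day 5 (interval -1.35 to -0.47), close to the -0.92 of day 3, at 20.9, 26.8 and 24 CPM in controls and 8.95, 12.1 and 17.1 CPM in LysM-Cre libraries, without overlap, as in 8.03% of all genes in that direction. With RANKL it was 0.18 (interval -0.23 to 0.59), at levels of 18998 to 31255 CPM. The difference between media was 1.10 (interval 0.47 to 1.73, unadjusted p = 0.00156, adjusted p = 1). Afdn had differences of 0.01 at day 5 (interval -0.14 to 0.17) and 0.00 with RANKL (interval -0.15 to 0.15), and both contrasts of these with day 3 in M-CSF had an adjusted p of 1. Cacna1a was lower in all 3 settings, by -0.69 at day 3, -0.87 at day 5 (interval -1.28 to -0.45) and -1.04 with RANKL (interval -1.5 to -0.58). Over all genes, edgeR called 0 of 15035 for day 5 minus day 3, with 338 (2.25%) at an unadjusted p under 0.05, and 0 for RANKL minus M-CSF alone, with 242 (1.61%).

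Without number 3, 110 genes were called at day 5 (0.717% of 15339), 36 higher (0.235%) and 74 lower (0.482%). Of the 35 genes of day 3, 30 were also called at day 5 in the same direction, which is 85.7% of the day 3 genes and 27.3% of those of day 5. Of the 6 genes called with RANKL at day 3 (0.0391%), 5 were among the 35. The library of number 3 at day 5 was nearer to the control mean in 105 of the 110 (95.5%), against 55.9% of all genes. Igf2r without number 3 had a difference of -1.05 at day 3, -1.71 at day 5 (adjusted p = 5.84e-06) and -0.23 with RANKL (adjusted p = 0.984). Padi2 had differences of 1.37, 2.40 (adjusted p = 2.71e-07) and 1.5 (adjusted p = 7.56e-05) in the same order. All these contrasts without number 3 come from a single fit, with a shared spread for each gene, and use the same numbered sets. A gene with a small spread can thus be called in each of them, so the overlaps are a description and no independent support. How far libraries of the same number share cultures or mice is not explained in the sources.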

How the data were processed

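Bulk RNA-seq (TruSeq) was made from 24 mouse libraries. The authors deposited raw counts per gene for all of them in a single table of 54532 genes, and STAR, DESeq2 and GRCm39 are named, with no tool version, per the submitters' processing notes. Of the deposited gene positions, 98.3% equal those of GENCODE M21 on GRCm38, and coordinates are given as deposited. Neither the counting tool nor the strand setting is given in the sources used here. Counts were filtered with filterByExpr (15035 genes kept, 27.6%), scaled by TMM and fitted in edgeR 4.0.16 (R 4.3.3; robust quasi-likelihood, 1 coefficient per group, all 24 libraries, 16 residual degrees of freedom), with Benjamini-Hochberg adjustment over all genes tested and calls at an adjusted p under 0.05. SEs and 95% intervals come from the log2 difference and its F statistic. The prior count of the fitted differences is edgeR's default, 0.125; earlier tables of this work used 2, which moves no p-value and is given as an alternative. Genes were named by rule: all calls, the 12 leading genes in each direction as described, label and sex-linked genes, and up to 4 members per list with the smallest p; the genes called without number 3 and those of DESeq2 1.42.0 were named after their values were seen. The comparison, its genes and the gene lists were chosen with earlier results of these data known. The model was tested on simulated data. Alternatives were RLE and upper-quartile scaling, no filter, DESeq2, smaller sets of libraries, leaving out libraries, and a replicate block. Some genes named by the rule are not reported here. No table column was left unmatched.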

Additional observations from a re-analysis of the deposited data

How the results depend on the processing

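All counts are of genes at an adjusted p under 0.05 and are 0 in the fits not named. At day 3 in M-CSF alone the count was 3 with DESeq2, 1 with the replicate block, 35 without the LysM-Cre number 3 libraries, 119 with DESeq2 without them and 11 in the M-CSF-alone libraries without them. At day 5 it was 17 with DESeq2, 1 without the filter, 3 with the replicate block, 3 without all control number 1 libraries, and, without LysM-Cre number 3, 110, 266 with DESeq2, 47 in the M-CSF-alone libraries and 550 in the libraries of the comparison alone. With RANKL at day 3 it was 1 with DESeq2 and, without number 3, 6, 17 with DESeq2 and 1 in the libraries of the comparison alone; for RANKL minus M-CSF alone it was 13 with DESeq2 without number 3. Nectin1 passed with DESeq2 (0.88), without number 3 (0.95) and with both (0.96), and Mmp9 without number 3 (-1.10) and with DESeq2 as well (-1.09). Leaving out each of the 6 libraries in turn gave 0 calls in every comparison, differences of 0.77 to 0.95 for Nectin1, -1.10 to -0.83 for Mmp9 and 0.00 to 0.24 for Runx1, and 9798 to 10308 genes bounded inside 2-fold. That number was 10920 with a prior count of 2, the setting used in an earlier version of the tables. The prior count, the sets without each other number and the combined settings were chosen after seeing the data. The replicate block added 1 call at day 3, the Y-linked gene Ddx3y. Deviations of same-numbered libraries across genotypes correlated at -0.08, -0.121 and 0.461, and those of control 1 with LysM-Cre 2 at 0.533. Whether libraries of the same number share a source across genotypes cannot be told from these values. Of 3715 values of 165 single genes, 3620 kept their side of the threshold, 95 passed it in an alternative and 0 changed sign while called. The cause of each difference between fits was not tested.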
